A study of Homo sapiens with 12 samples.

Results

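The genes described here encode the potassium channels and their accessory subunits in EndoC-βH1, an immortalised line of insulin-producing human beta cells that was derived from fetal pancreas and divides in culture. They were chosen by name: the current symbol starts with KCN and the gene has a protein-coding RefSeq transcript, while antisense and intronic transcripts were left out. Of the 21508 genes listed in any library, 89 met this rule, and 1 further gene of the family was not analysed here. Polyadenylated RNA was sequenced from 4 groups of 3 libraries: TUNAR siRNAs with 1-AKP, negative siRNA with 1-AKP, TUNAR siRNAs with DMSO, and negative siRNA with DMSO. TUNAR is a long noncoding RNA, 1-AKP is an inhibitor of the kinase GSK3 that was given at 5 µM for 24 hours, and DMSO is its solvent. All 4 groups were transfected with an siRNA by a lipid reagent, so none is untransfected. Replicates 1 and 2 of each group are from passage 74 and replicate 3 is from passage 75. Beyond the passage, the labels do not say whether replicates were separate cultures, so the p-values measure the spread between these libraries, which may be technical.

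Potassium channels let potassium ions leave the cell, which holds the resting membrane potential and ends action potentials. In beta cells, glucose metabolism depolarises the membrane, calcium then enters through voltage-gated calcium channels, and insulin granules are released. Voltage-gated, calcium-activated and leak potassium currents bring the potential back and limit secretion. Voltage-gated subunits (KCNA to KCND, KCNF to KCNH, KCNQ, KCNS, KCNV) open on depolarisation, while KCNMA1, KCNN and KCNT channels respond to calcium or sodium. KCNJ genes encode inward rectifiers, KCNK genes encode two-pore-domain leak channels, and KCNAB, KCNE, KCNIP and KCNMB genes encode accessory subunits.

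The libraries held between 15653786 and 15986834 expected counts. TUNAR itself had 6.95, 10.4 and 13.6 CPM with TUNAR siRNAs, against 27.9, 31 and 30.8 CPM with negative siRNA, in 1-AKP. In DMSO it had 3.83, 7.2 and 8.09 CPM with TUNAR siRNAs, against 14.4, 19.9 and 17.6 CPM with negative siRNA, so the target was lower in every TUNAR siRNA library of both treatments. CPM are counts brought to a common library size with TMM scaling, and they are used here within a gene. Among the beta-cell markers, PDX1 had 256 to 343 CPM and NKX6-1 69.7 to 131 CPM over the 12 libraries. UCN3 was lower, at 7.92 to 16.2 CPM, and G6PC2 ran from 6.43 to 223 CPM. The alpha-cell hormone GCG stayed at or below 0.444 CPM, the fibroblast gene COL1A2 at or below 0.251 CPM and the endothelial gene VWF at or below 0.126 CPM. Other markers on these lists were not near 0. The islet hormone SST ran from 3.8 to 33.5 CPM and the duct marker KRT19 from 48.7 to 68 CPM. The acinar marker CPA1 ran from 20.5 to 33 CPM and the blood marker CD68 from 20.8 to 53.7 CPM. PPY, PRSS1 and CELA3A were not listed in any library. The 4 libraries of replicate number 1 stood apart, since their summed markers of other islet cells came to between 29.6 and 35.1 CPM, against 4.43 to 7.81 CPM in the other 8 libraries. Their summed mitosis markers came to between 1789 and 1955 CPM, against 1237 to 1409 CPM.

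EndoC-βH1 cells expressed a subset of the family, led by a few leak and voltage-gated channels. Levels of different genes were compared in FPKM, in which fragments are divided by transcript length and library size. Of the 89 genes, 61 were above 0 in all 12 libraries, 34 had a mean of at least 1 FPKM, 10 had a mean of at least 10 FPKM, and 28 had a mean under 0.1 FPKM. The share with a mean of at least 1 FPKM was 38.2% among the potassium channel genes and 63.5% among all listed genes. The 3 highest genes held 54.8% of the FPKM summed over the family and the 10 highest held 79.8%. By class, two-pore-domain genes took 42.5% of that sum, voltage-gated genes 40.4%, inward rectifiers 10.2%, accessory subunits 3.34% and calcium- or sodium-activated channels 3.29%.

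**Figure D1:**
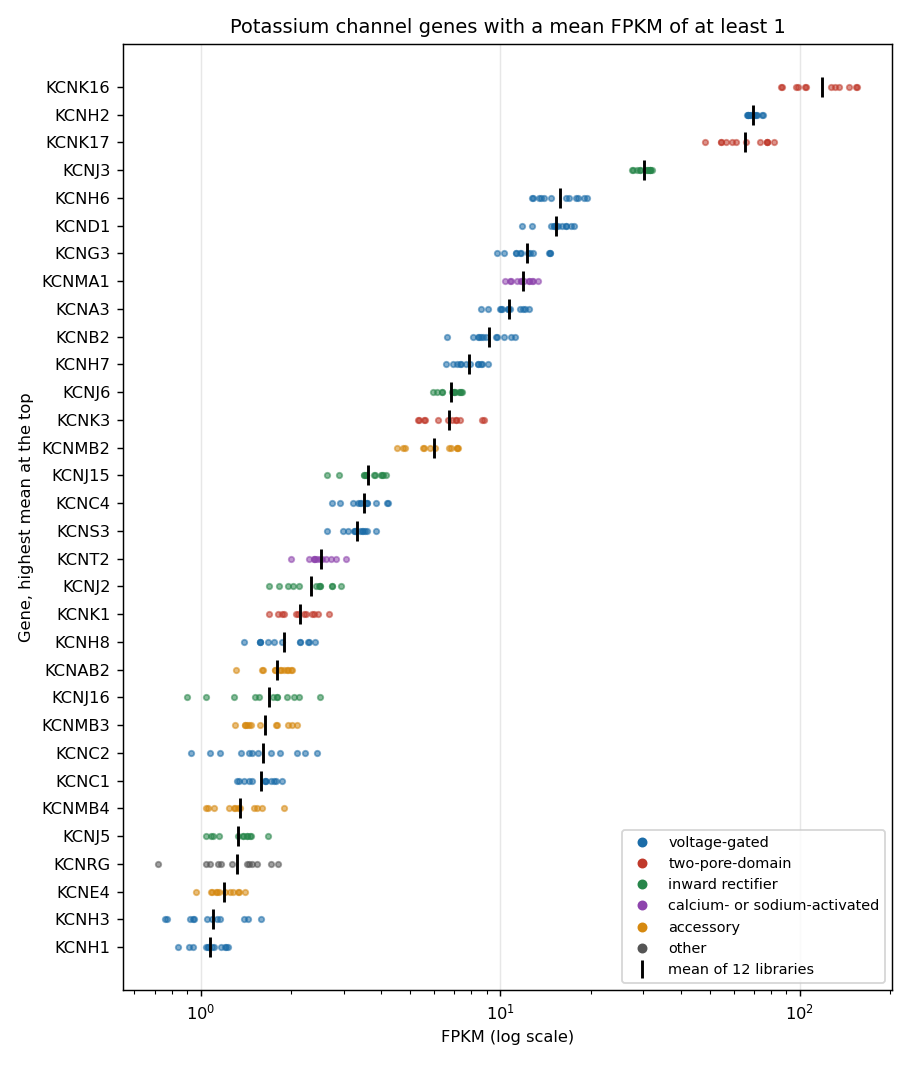
FPKM (log axis) of 32 of the 34 potassium channel genes with a mean of at least 1 FPKM. Each point is 1 of the 12 libraries, coloured by class, and the vertical bar is their mean; KCNK16 leads at a mean of 119 FPKM, KCNH2 and KCNK17 overlap below it, and most other genes lie between 1 and 20 FPKM with overlapping ranges.

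Among the two-pore-domain channels, 4 of 14 genes had a mean of at least 1 FPKM. KCNK16, which encodes TALK-1, a leak channel known for its expression in pancreatic islets, averaged 119 ± 25.5 FPKM (SD, n = 12) and was the highest member, at rank 455 of all genes. KCNK17, which encodes the related alkaline-activated channel TALK-2, averaged 65.7 ± 11.4 FPKM (SD, n = 12). KCNK3, the acid-sensitive channel TASK-1, averaged 6.72 ± 1.19 FPKM, and KCNK1, the channel TWIK-1, averaged 2.15 ± 0.294 FPKM (SD, n = 12 each). The lowest KCNK16 library, at 86.2 FPKM, lay above the highest library of every other member.

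Voltage-gated genes made up the longest list, with 16 of 37 at or above a mean of 1 FPKM. KCNH2, the ERG1 channel of delayed repolarisation, was second in the family at 69.8 ± 3.01 FPKM (SD, n = 12). Its ranges overlapped those of KCNK17, and KCNH2 was the higher of the pair in 7 of 12 libraries, so their order is not resolved. The ERG relatives KCNH6 and KCNH7 averaged 15.8 and 7.86 FPKM. KCNQ3, a subunit of the slow M-type current, averaged 0.749 FPKM. The A-type channel gene KCND1 averaged 15.4 FPKM, the silent subunit KCNG3, which is known to join Kv2 channels and alter their gating, 12.3 FPKM, and the delayed rectifier KCNA3 10.6 FPKM. KCNB2, the Kv2.2 delayed rectifier, averaged 9.14 FPKM and ran from 6.62 to 11.2 FPKM. Of the fast Kv3 channels, KCNC4 averaged 3.5, KCNC2 1.61 and KCNC1 1.59 FPKM. The silent subunit KCNS3 averaged 3.31 FPKM, and the EAG and ELK relatives KCNH8, KCNH3 and KCNH1 averaged 1.89, 1.1 and 1.07 FPKM. The remaining 21 voltage-gated genes had means under 1 FPKM, KCNG2 being the highest of them at 0.950 FPKM, and 16 of them did not pass the filter on low counts.

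Inward rectifiers were led by subunits of the G-protein-gated channels that hormone and transmitter receptors open. KCNJ3, their GIRK1 subunit, averaged 30.1 ± 1.61 FPKM (SD, n = 12), KCNJ6, the GIRK2 subunit, 6.85 FPKM, and KCNJ5, the GIRK4 subunit, 1.33 FPKM. KCNJ15 averaged 3.62 FPKM, KCNJ2, the classical strong inward rectifier, 2.33 FPKM, and KCNJ16, a subunit that forms channels with other inward rectifiers, 1.69 FPKM. These are 6 of 14 inward rectifier genes. KCNJ12 and KCNJ18, near-identical copies whose counts are uncertain for that reason, were under 0.1 FPKM. Of the calcium- or sodium-activated channels, KCNMA1, the pore of the large-conductance BK channel, averaged 11.9 ± 0.918 FPKM (SD, n = 12) and the sodium-activated KCNT2 2.51 FPKM, while the small-conductance channel KCNN3 averaged 0.477 FPKM and the other 4 genes of the class lay lower. KCNMB2, a beta subunit that makes BK inactivate, was the most abundant accessory gene and averaged 6.01 FPKM, KCNMB3 1.64 FPKM and KCNMB4 1.35 FPKM. KCNAB2, a beta subunit of Kv1 channels, averaged 1.8 FPKM and KCNE4 1.19 FPKM, and KCNRG, a cytosolic protein that interferes with the assembly of voltage-gated channels, 1.32 FPKM. KCNMB3 overlaps PIK3CA and KCNRG overlaps TRIM13 in the annotation, and the labels state no strand marking, so reads of these overlaps cannot be assigned to 1 gene.

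In the order of levels, the ranges over the 12 libraries did not overlap between KCNK16 and KCNH2 or between KCNK17 and KCNJ3. The ranges of KCNH2 and KCNK17, KCNH6 and KCND1, KCND1 and KCNG3, KCNG3 and KCNMA1, KCNMA1 and KCNA3, and KCNA3 and KCNB2 overlapped, although KCNA3 exceeded KCNB2 in 12 of 12 libraries. The filter on low counts kept 55 members for testing and left out 34, of which the highest mean was 0.502 FPKM (KCNE2); the lowest mean among those tested was 0.183 FPKM. The edgeR tests below cover those 55 genes. DESeq2 was fitted on all 89, but its own filtering can leave low genes without an adjusted p.

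With 1-AKP, the most abundant leak channels and several voltage-gated and BK subunits were lower than with DMSO: KCNK16 fell by 30.6%, KCNN3 fell by 26.9% and KCNH8 fell by 26.4%. KCNK17 fell by 25.2%, KCNH6 fell by 23.9% and KCNK3 fell by 23.3%. KCNG3 and KCNQ3 rose by 21.4% and 26.2%. These values are the mean of the 1-AKP effects with TUNAR siRNAs and with negative siRNA, 6 libraries against 6. The tests are edgeR's quasi-likelihood tests fitted on all 15990 genes that passed the filter, with Benjamini-Hochberg adjustment over all of them and a threshold of 0.05. In this mean effect 10 of the 55 genes fell, beside 9.25% of all genes tested, and 2 rose, beside 9.97%. Those are 18.2% and 3.64% of the potassium channel genes tested. The median log2 fold change (1-AKP over DMSO) was -0.12 over the 55 genes and -0.0027 over all genes, and 40 of the 55 lay below 0. With TUNAR siRNAs, 6 genes fell, beside 3.79% of all genes, and 0 rose, beside 3.72%, while 13 of the 55 had an unadjusted p under 0.05. With negative siRNA, 4 genes fell, beside 3.76%, and 0 rose, beside 3.54%, again with 13 at an unadjusted p under 0.05. DESeq2 called 5 genes lower with TUNAR siRNAs, 4 lower with negative siRNA and 0 higher in both. Over all 21455 genes it called 683 lower and 697 higher with TUNAR siRNAs. With negative siRNA it called 641 lower and 697 higher. With scaling by library size alone, 6 genes fell and 0 rose with negative siRNA, and the calls over all genes shifted to 414 higher and 702 lower, against 566 higher and 602 lower with TMM. A test of any difference among the 4 groups called 7 of the 55, beside 10.8% of all genes. A fit with replicate number as a block, run as an alternative, called 16 lower and 3 higher in the mean effect. Over all 15990 genes it called 3046 lower and 3297 higher. The 1-AKP values of single genes below are without this block unless another fit is named, and a gene that missed the threshold may pass it with the block.

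The FPKM summed over the 89 genes ran from 422 to 453 in the TUNAR siRNA libraries with 1-AKP and from 409.9 to 426 in the negative siRNA libraries with 1-AKP, against 488 to 538 in the TUNAR siRNA libraries with DMSO and 475 to 514 in the negative siRNA libraries with DMSO. Each 1-AKP library thus lay below each DMSO library, and the sum was not tested. The sum is weighted to the highest genes, so it does not describe the family as a whole. KCNK16 averaged 96.3 FPKM with 1-AKP, against 141 FPKM with DMSO, and KCNK17 averaged 55.8 FPKM, against 75.6 FPKM. KCNH2, second in level, averaged 69.5 FPKM with 1-AKP and 70.2 FPKM with DMSO. The counts depend on single libraries. With TUNAR siRNAs 3 genes were called without replicate 2 or 3 of the DMSO group or without replicate 3 of the 1-AKP group. With negative siRNA 2 were called without replicate 2 of the DMSO group. Within passage 74, with 2 libraries a group, 1 gene (KCNK16) was called in each comparison and 3 in the mean effect. Shares of all genes called in these smaller sets are not given here. Losses particular to potassium channel genes therefore cannot be told from a general loss of calls. Passage 75 has 1 library a group and gives values only.

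The 3 expressed two-pore-domain genes with the highest levels all fell, and they account for the 3 calls among the 11 genes of the class that were tested. KCNK16 had 128, 127 and 103 CPM with TUNAR siRNAs and 1-AKP, against 183, 186 and 152 CPM with TUNAR siRNAs and DMSO. With negative siRNA it had 118, 118 and 105 CPM in 1-AKP, against 157, 175 and 154 CPM in DMSO. The 6 libraries with 1-AKP, at 103 to 128 CPM, did not overlap the 6 with DMSO, at 152 to 186 CPM. The log2 fold change was -0.54 with TUNAR siRNAs (SE 0.10, adjusted p = 0.00632), -0.51 with negative siRNA (SE 0.10, adjusted p = 0.00946) and -0.53 in the mean effect (SE 0.069, adjusted p = 0.000306). Within passage 74 the mean effect was -0.51 (adjusted p = 0.00228). Its 3 calls were kept under every alternative run, each single library left out included.

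KCNK17 had 88.9, 99.3 and 91.8 CPM with TUNAR siRNAs and 1-AKP, against 124, 131 and 124 CPM with TUNAR siRNAs and DMSO. The negative siRNA libraries had 77.9, 88.2 and 95.8 CPM in 1-AKP, against 104, 124 and 117 CPM in DMSO. Here too all 6 libraries with 1-AKP lay below all 6 with DMSO, and the log2 fold change was -0.44 with TUNAR siRNAs (adjusted p = 0.00605), -0.40 with negative siRNA (adjusted p = 0.0102) and -0.42 in the mean effect (SE 0.056, adjusted p = 0.000302). Without replicate 2 of the negative siRNA DMSO group, the call with negative siRNA was lost (adjusted p = 0.0541). For KCNK3, the TUNAR siRNA libraries had 21.4, 27.1 and 24.9 CPM in 1-AKP, against 27.3, 35.4 and 34.6 CPM in DMSO. Its negative siRNA libraries had 21.5, 22.6 and 22.4 CPM in 1-AKP, against 28, 28.3 and 29 CPM in DMSO. The groups did not overlap, although the margin was small: the highest 1-AKP library had 27.1 CPM and the lowest DMSO library 27.3 CPM. KCNK3 fell in the mean effect (log2 fold change -0.38, SE 0.073, adjusted p = 0.00286) and with TUNAR siRNAs (-0.41, SE 0.10, adjusted p = 0.0318), while with negative siRNA it was -0.36 with an adjusted p of 0.0567. The call with TUNAR siRNAs was lost without replicate 2 of the negative siRNA DMSO group, replicates 2 or 3 of the TUNAR siRNA DMSO group, or replicates 1 or 3 of the TUNAR siRNA 1-AKP group, with adjusted p up to 0.136, and with limma on log2 FPKM without a filter it was 0.0529. The other 8 two-pore-domain genes tested, with means from 0.215 FPKM (KCNK2) to 2.15 FPKM (KCNK1), were not called in the mean effect.

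**Figure D2:**
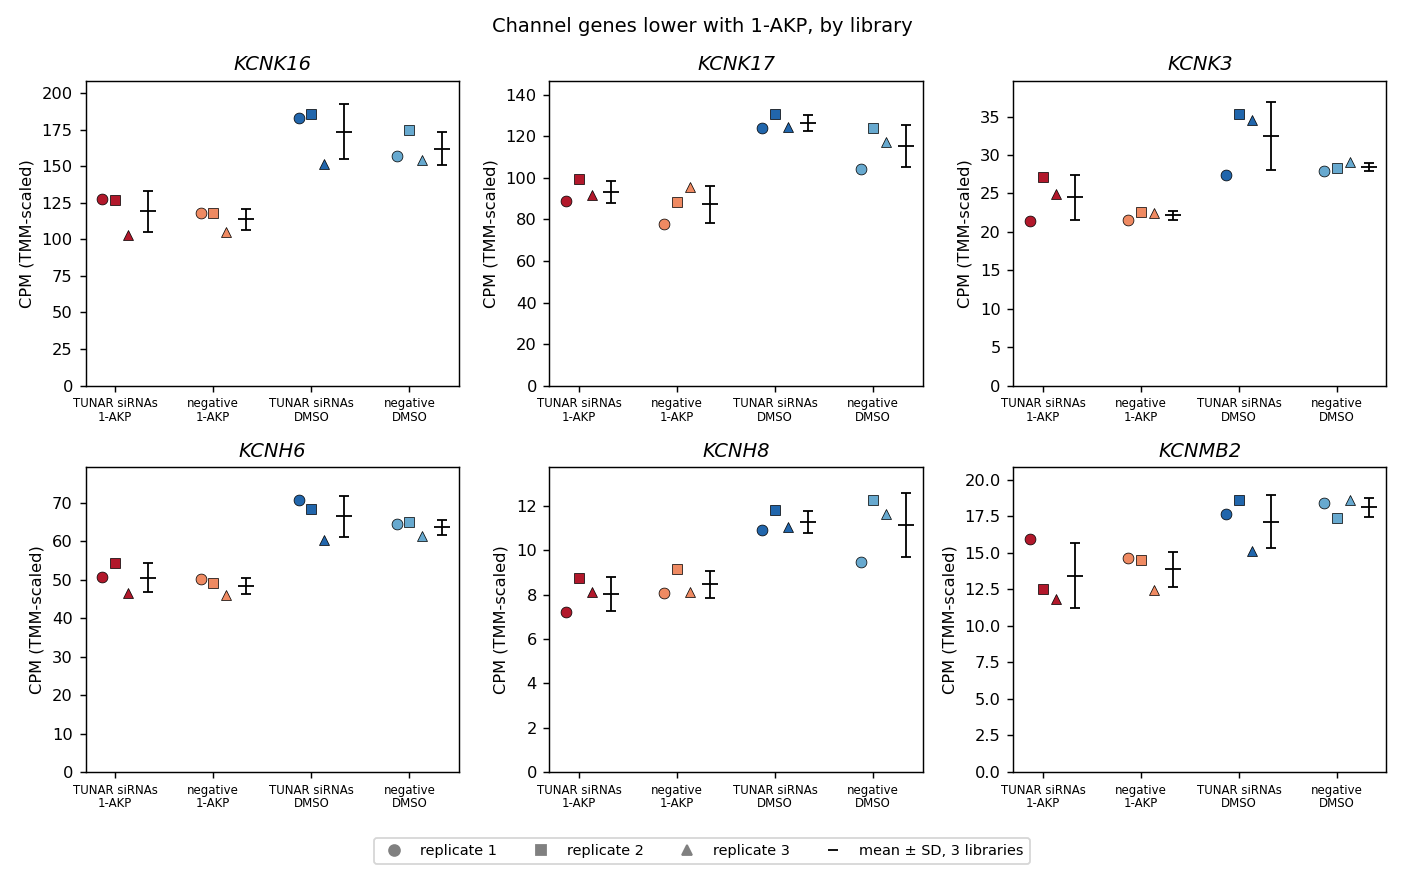
CPM (TMM-scaled, linear axes from 0) of 6 potassium channel genes in each library, by group; symbols mark the replicate number and bars give mean ± SD of 3 libraries. In KCNK16, KCNK17, KCNK3, KCNH6 and KCNH8 the 1-AKP libraries (red and orange) lie below every DMSO library (blue), while in KCNMB2 the 2 treatments overlap by 1 library of each.

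KCNK16 and KCNK17 are neighbours on human chromosome 6, on the same strand, with annotated starts 8549 bases apart, and the start of KCNK17 lies just beyond the end of KCNK16. An uncharacterised noncoding gene overlaps both in the annotation, and without strand marking its reads could not be separated from theirs. The bases before the annotated starts of both genes are shown with those of KCNK3 and KCNH6, since they are the 3 called two-pore-domain genes and the called gene with the lowest p. They are RefSeq sequences on GRCh38.p14, 5′ to 3′ on the gene's strand: KCNK16 at chr6:39322969-39323218 (minus strand, before the farther upstream of its annotated starts), KCNK17 at chr6:39314420-39314569 (minus strand, its window shortened to the bases outside KCNK16), KCNH6 at chr17:63523108-63523357 (plus strand) and KCNK3 at chr2:26692472-26692721 (plus strand). Capitals mark the GC box GGGCGG or its other strand CCGCCC.
KCNK16: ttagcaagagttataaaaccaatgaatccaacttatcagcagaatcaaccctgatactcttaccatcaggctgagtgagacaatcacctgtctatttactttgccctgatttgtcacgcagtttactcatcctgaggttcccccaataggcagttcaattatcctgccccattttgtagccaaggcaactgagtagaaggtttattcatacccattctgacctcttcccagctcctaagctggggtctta
KCNK17: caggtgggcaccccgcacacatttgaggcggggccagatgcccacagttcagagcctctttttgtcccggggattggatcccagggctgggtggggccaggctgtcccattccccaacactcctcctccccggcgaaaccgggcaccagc
KCNH6: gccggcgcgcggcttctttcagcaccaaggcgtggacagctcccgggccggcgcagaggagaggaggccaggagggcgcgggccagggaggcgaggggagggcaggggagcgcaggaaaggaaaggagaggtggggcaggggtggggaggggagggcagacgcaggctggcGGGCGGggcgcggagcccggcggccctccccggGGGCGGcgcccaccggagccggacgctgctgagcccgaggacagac
KCNK3: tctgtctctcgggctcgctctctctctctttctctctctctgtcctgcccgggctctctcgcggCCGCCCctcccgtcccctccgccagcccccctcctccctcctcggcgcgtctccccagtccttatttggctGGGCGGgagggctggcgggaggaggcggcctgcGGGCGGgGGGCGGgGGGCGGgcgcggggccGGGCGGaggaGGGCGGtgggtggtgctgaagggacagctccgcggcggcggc

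KCNK3 held 7 GC boxes and KCNH6 held 2, whereas the windows shown for KCNK16 and KCNK17 held 0. GC content was 76.4% in the window of KCNK3, 77.6% in KCNH6, 43.6% in KCNK16 and 66% in KCNK17. The letters CTTTGA (other strand TCAAAG), part of the site of TCF/LEF factors, which act with the GSK3 substrate beta-catenin, occurred in none of the 4 windows shown. Counted in 250 bases before each annotated start, they were found in 10.6% of the 104 windows of potassium channel genes and in 11.2% of 35116 windows of all genes. The GC box was found in 50% of the windows of potassium channel genes and 42.6% of all, the cAMP response half-site TGACG (other strand CGTCA) in 14.4% and 21.2%, and the homeodomain letters TAATTA in 0% and 4.35%. The table holds windows for 67 of the 89 genes and for 8 of the 12 genes called in the mean effect. Of those 8, 1 (KCNK16, at its second annotated start) has the TCF/LEF letters and 6 have a GC box. A match says only that the letters stand in these windows.

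Among the 21 voltage-gated genes tested, 4 fell and 2 rose in the mean effect, and 3 of the 4 that fell belong to the KCNH group. The group did not move as a whole, since KCNH1, KCNH2, KCNH3 and KCNH4 were tested and not called. KCNH1 averaged 1.11 FPKM with 1-AKP and 1.03 FPKM with DMSO, and KCNH4 0.417 and 0.323 FPKM. KCNH3 averaged 0.945 FPKM with 1-AKP and 1.25 FPKM with DMSO. KCNH6 had 50.6, 54.3 and 46.6 CPM with TUNAR siRNAs and 1-AKP, against 70.6, 68.3 and 60.4 CPM with TUNAR siRNAs and DMSO. With negative siRNA, KCNH6 had 50.2, 49 and 46.1 CPM in 1-AKP, against 64.4, 65 and 61.3 CPM in DMSO. All 6 libraries with 1-AKP lay below all 6 with DMSO, with log2 fold changes of -0.40 (SE 0.072, adjusted p = 0.00605) with TUNAR siRNAs, -0.39 (SE 0.072, adjusted p = 0.00722) with negative siRNA and -0.39 (SE 0.051, adjusted p = 0.000237) in the mean effect. KCNH8, an ELK channel, had 7.21, 8.74 and 8.12 CPM with TUNAR siRNAs and 1-AKP, against 10.9, 11.8 and 11 CPM with TUNAR siRNAs and DMSO. With negative siRNA it had 8.09, 9.14 and 8.14 CPM in 1-AKP, against 9.49, 12.3 and 11.6 CPM in DMSO, so the treatments again did not overlap, by a margin of less than 1 CPM. It fell in the mean effect (log2 fold change -0.44, SE 0.082, adjusted p = 0.00237) and with TUNAR siRNAs (-0.49, SE 0.12, adjusted p = 0.0241); with negative siRNA the value was -0.40 with an adjusted p of 0.0589. The call with TUNAR siRNAs was lost without replicates 2 or 3 of the DMSO group or replicates 1 or 3 of the 1-AKP group of those siRNAs (adjusted p up to 0.0924).

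KCNH7, the ERG3 gene, showed a smaller difference, with 32.6, 29.5 and 30.1 CPM with TUNAR siRNAs and 1-AKP, against 35.4, 33.9 and 33.4 CPM with TUNAR siRNAs and DMSO. Its negative siRNA libraries had 26.7, 26.5 and 28.8 CPM in 1-AKP, against 30.7, 34 and 29.7 CPM in DMSO. The treatments did not overlap within either siRNA but overlapped when pooled, and KCNH7 fell in the mean effect only (log2 fold change -0.18, SE 0.05, adjusted p = 0.0228). That call was lost without replicate 2 of the negative siRNA DMSO group, replicate 1 of the TUNAR siRNA DMSO group, replicate 2 of the negative siRNA 1-AKP group, or replicates 2 or 3 of the TUNAR siRNA 1-AKP group (adjusted p up to 0.0617), and with limma on log2 FPKM (adjusted p up to 0.0904). KCNB2, the Kv2.2 delayed rectifier, had 29.6, 30.7 and 31.9 CPM with TUNAR siRNAs and 1-AKP, against 34.6, 37.3 and 39.2 CPM with TUNAR siRNAs and DMSO. In negative siRNA libraries KCNB2 had 24, 31.3 and 31 CPM with 1-AKP, against 31.9, 35 and 40.1 CPM with DMSO. The lowest DMSO library lay just above the highest 1-AKP library, and KCNB2 fell in the mean effect (log2 fold change -0.29, SE 0.075, adjusted p = 0.0161) but missed the threshold with TUNAR siRNAs (adjusted p = 0.154) and with negative siRNA (adjusted p = 0.104).

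The silent subunit KCNG3 moved the other way, with 43.7, 50.0 and 56.5 CPM with TUNAR siRNAs and 1-AKP, against 37.3, 45.1 and 43.4 CPM with TUNAR siRNAs and DMSO. Negative siRNA libraries of KCNG3 had 48.4, 56.2 and 56.7 CPM with 1-AKP, against 38.9, 44.6 and 47.1 CPM with DMSO. Each 1-AKP library exceeded the DMSO library of the same siRNA and number, the treatments overlapped with TUNAR siRNAs but not with negative siRNA, and KCNG3 rose in the mean effect (log2 fold change 0.28, SE 0.076, adjusted p = 0.0218). That call was lost without replicates 2 or 3 of the negative siRNA 1-AKP group or replicate 3 of the TUNAR siRNA 1-AKP group (adjusted p up to 0.0558), and with limma on log2 FPKM without a filter it was 0.0574. KCNQ3, the M-current subunit, had 6.89, 9.57 and 9.58 CPM with TUNAR siRNAs and 1-AKP, against 5.78, 7.14 and 6.89 CPM with TUNAR siRNAs and DMSO. In its negative siRNA libraries the values were 8.79, 11.2 and 10.0 CPM with 1-AKP and 7.37, 8.53 and 8.89 CPM with DMSO. The groups overlapped, and KCNQ3 rose in the mean effect (log2 fold change 0.34, SE 0.11, adjusted p = 0.0419). The call held only when the library left out was replicate 1 of either 1-AKP group, and the other 10 omissions gave adjusted p up to 0.104. It was also lost with scaling by library size (adjusted p = 0.0512) and with limma on log2 FPKM, where the value was as low as 0.14 with a pseudocount of 1 (adjusted p up to 0.124).

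The most abundant voltage-gated gene, KCNH2, was close to level between treatments: it averaged 298 ± 13.9 CPM with TUNAR siRNAs and 1-AKP and 299.6 ± 12.3 CPM with TUNAR siRNAs and DMSO, and 285 ± 3.68 CPM with negative siRNA and 1-AKP and 281 ± 9.77 CPM with negative siRNA and DMSO (SD, n = 3 each). Its mean log2 fold change was 0.01 (SE 0.033, adjusted p = 0.941), beside -0.39 for its relative KCNH6; the difference between the 2 genes was not tested. KCND1 was at 0.03 (adjusted p = 0.865) and KCNA3 at -0.05 (adjusted p = 0.707). Of the Kv3 genes, KCNC2 was at -0.40 (SE 0.22, adjusted p = 0.241) and KCNC4 at -0.12 (SE 0.075, adjusted p = 0.323). KCNC2 had 11.1, 6.52 and 4.95 CPM with TUNAR siRNAs and 1-AKP, against 11.5, 7.95 and 10.0 CPM with TUNAR siRNAs and DMSO. With negative siRNA, KCNC2 had 9.48, 5.86 and 4.71 CPM in 1-AKP, against 11.1, 7.91 and 7.95 CPM in DMSO. Replicate 1 was the highest library of each group, and the treatments overlapped. KCNH3, an ELK channel, was at -0.38 (SE 0.15, adjusted p = 0.101). It had 3.02, 3.74 and 3.68 CPM with TUNAR siRNAs and 1-AKP, against 3.52, 5.57 and 4.07 CPM with TUNAR siRNAs and DMSO. Its negative siRNA libraries had 2.97, 4.54 and 4.26 CPM with 1-AKP, against 4.31, 5.35 and 6.13 CPM with DMSO.

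The calcium-activated and accessory genes that were called also lay lower with 1-AKP. KCNN3, the SK3 channel, which opens on calcium entry, had 6.24, 6.21 and 5.46 CPM with TUNAR siRNAs and 1-AKP, against 9.11, 7.76 and 7.58 CPM with TUNAR siRNAs and DMSO. With negative siRNA, it had 4.74, 4.41 and 4.2 CPM in 1-AKP, against 5.93, 6.72 and 5.63 CPM in DMSO. The treatments did not overlap within either siRNA, and KCNN3 fell in the mean effect (log2 fold change -0.45, SE 0.087, adjusted p = 0.00306), with TUNAR siRNAs (-0.45, SE 0.12, adjusted p = 0.0394) and with negative siRNA (-0.45, SE 0.13, adjusted p = 0.0482). It is a low gene, with 66 to 145 expected counts per library, and the single comparisons sit near the threshold. With TUNAR siRNAs the call held only when the library left out was replicate 2 or 3 of the negative siRNA DMSO group or replicate 1 of the negative siRNA 1-AKP group (adjusted p otherwise up to 0.15). With negative siRNA it held only without replicate 1 of the TUNAR siRNA DMSO group (otherwise up to 0.178), and DESeq2 called KCNN3 in neither. Both calls were lost as well without the filter on low counts and with limma on log2 FPKM, where the values with a pseudocount of 1 were -0.17 with TUNAR siRNAs and -0.14 with negative siRNA (adjusted p up to 0.179). KCNMA1, the BK pore, was at -0.10 in the mean effect (SE 0.053, adjusted p = 0.247). KCNMA1 had 57, 53.1 and 49.1 CPM with TUNAR siRNAs and 1-AKP, against 61.5, 57.5 and 53.1 CPM with TUNAR siRNAs and DMSO. With negative siRNA, KCNMA1 had 55.9, 50.3 and 47.8 CPM in 1-AKP, against 54.5, 55.3 and 53 CPM in DMSO. The treatments overlapped for KCNMA1 with both siRNAs. Its beta subunit KCNMB2 had 16, 12.5 and 11.8 CPM with TUNAR siRNAs and 1-AKP, against 17.7, 18.6 and 15.1 CPM with TUNAR siRNAs and DMSO. With negative siRNA, KCNMB2 had 14.6, 14.5 and 12.5 CPM in 1-AKP, against 18.4, 17.4 and 18.6 CPM in DMSO. KCNMB2 fell in the mean effect (log2 fold change -0.37, SE 0.084, adjusted p = 0.00865); only replicate 1 with TUNAR siRNAs and 1-AKP, at 16 CPM, exceeded any DMSO library.

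KCNMB4, the other called BK subunit, had 6.5, 6.21 and 5.33 CPM with TUNAR siRNAs and 1-AKP, against 7.23, 7.64 and 7.15 CPM with TUNAR siRNAs and DMSO. The negative siRNA groups of KCNMB4 had 5.06, 4.98 and 5.98 CPM with 1-AKP and 8.93, 6.29 and 6.13 CPM with DMSO. It fell in the mean effect (log2 fold change -0.35, SE 0.11, adjusted p = 0.039), but the call held only when the library left out was replicate 2 or 3 of the negative siRNA DMSO group, replicate 3 of the negative siRNA 1-AKP group or replicate 1 of the TUNAR siRNA 1-AKP group. The other 8 omissions gave adjusted p up to 0.0963, and with limma on log2 FPKM without a filter it was 0.0641. Of the 10 accessory genes tested, 2 fell and 0 rose, and of the 4 calcium- or sodium-activated genes 1 fell and 0 rose. Of the 8 inward rectifiers tested, 0 were called in the mean effect, and 2 of the 8 had a positive log2 fold change. KCNJ3, the most abundant of them, had 139, 132 and 134 CPM with TUNAR siRNAs and 1-AKP, against 121, 127 and 122 CPM with TUNAR siRNAs and DMSO. With negative siRNA, KCNJ3 had 128, 134 and 129 CPM in 1-AKP, against 122, 130.3 and 124 CPM in DMSO. It was higher with 1-AKP in each of the 6 same-numbered pairs, with a log2 fold change of 0.09 (SE 0.031) and an adjusted p of 0.0554. KCNJ6 was at 0.12 (adjusted p = 0.146) and KCNJ2 at -0.23 (adjusted p = 0.224). KCNJ2 had 15.1, 11.7 and 10.7 CPM with TUNAR siRNAs and 1-AKP, against 14.8, 13.1 and 13.6 CPM with TUNAR siRNAs and DMSO. In its negative siRNA libraries it had 13.5, 9.96 and 9.29 CPM with 1-AKP, against 15.8, 11 and 13.5 CPM with DMSO, and the treatments overlapped with both siRNAs. KCNJ16 was at -0.42 (SE 0.19, adjusted p = 0.144) and KCNJ8, another inward rectifier of low level, at -0.36 (adjusted p = 0.162). KCNJ16 had 7.27, 7.47 and 4.25 CPM with TUNAR siRNAs and 1-AKP, against 9.99, 8.64 and 6.08 CPM with TUNAR siRNAs and DMSO. With negative siRNA, KCNJ16 had 7.14, 5.23 and 3.75 CPM in 1-AKP, against 7.68, 8.4 and 6.26 CPM in DMSO, and replicate 3 was its lowest library in each group.

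**Figure D3:**
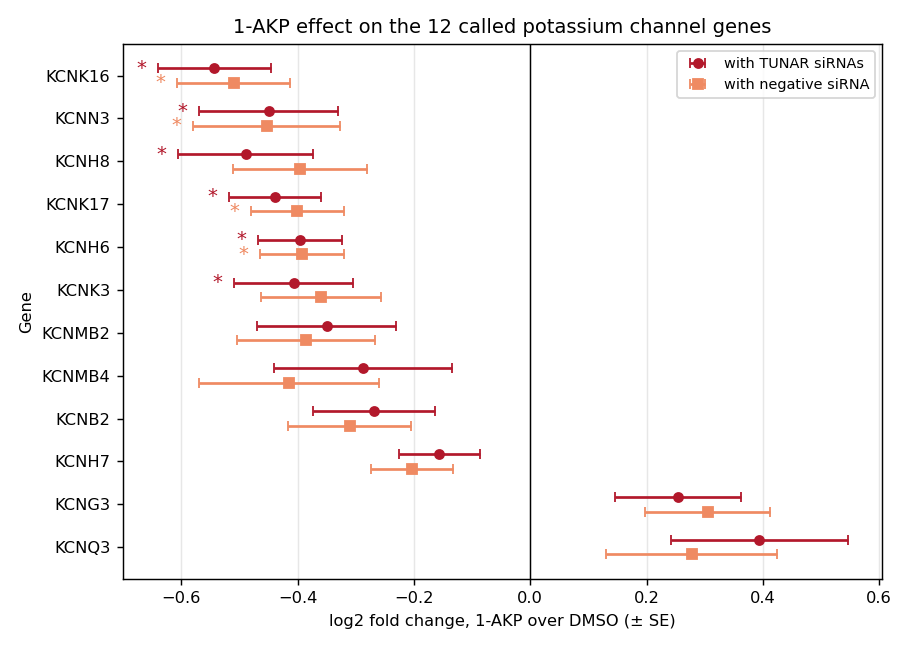
Log2 fold change of 1-AKP over DMSO (x axis, ± SE) for the 12 potassium channel genes called in the mean effect, with TUNAR siRNAs (dark circles) and with negative siRNA (light squares); asterisks mark adjusted p under 0.05 in that comparison. For every gene both estimates lie on the same side of 0, below it for 10 genes and above it for KCNG3 and KCNQ3, and KCNK16 lies lowest at -0.54 with TUNAR siRNAs.

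Within passage 74 alone, the mean effect of the 10 genes that fell ran from -0.51 (KCNK16) to -0.22 (KCNH7), and it was 0.25 for KCNG3 and 0.34 for KCNQ3. All 12 kept their direction there, KCNK16, KCNK17 (adjusted p = 0.017) and KCNH6 (adjusted p = 0.00687) kept their call, and the other 9 had adjusted p from 0.0585 (KCNN3) to 0.241 (KCNQ3). Passage 75 gave 1 library a group, and there each of the 12 genes differed in the same direction with either siRNA. Markers of other cells moved with the treatment as well. Of the 7 neural and glial markers, 4 were tested and DCX (log2 fold change -0.42, adjusted p = 0.000102) and STMN2 (-0.21, adjusted p = 0.00281) fell. The list summed to 688 to 714 CPM with TUNAR siRNAs and 1-AKP, against 767 to 822 CPM with TUNAR siRNAs and DMSO, and to 626 to 665 CPM with negative siRNA and 1-AKP, against 688 to 758 CPM with negative siRNA and DMSO. The glial genes S100B and GFAP were at or near 0 in all libraries. Of the 10 beta-cell markers 5 fell, among them NKX6-1 (-0.50, adjusted p = 5.18e-05) and IAPP (-0.80, adjusted p = 0.0045), and 1 rose (G6PC2); the calls of PDX1, one of the 5, and of G6PC2 were each lost in 8 of 12 omissions of 1 library (adjusted p up to 0.0944 and 0.0864). The part of these marker changes in the potassium channel results was not tested, and in bulk RNA fewer cells of a type and less RNA per cell cannot be told apart.

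With TUNAR siRNAs, the A-type channel KCND1 and the calcium-activated channel KCNN3 were higher than with negative siRNA in each of the 6 same-numbered pairs, by 15.4% and 33.8%, calls that rest on a fit with replicate number as a block. Without regard to replicate number, edgeR called 0 of the 55 genes in DMSO, beside 0.0125% of all genes, 0 in 1-AKP, beside 0%, and 0 in the mean effect over both treatments, beside 0.175%. At an unadjusted p under 0.05 there were 4, 2 and 8 of the 55 genes, and DESeq2 called 0 in each. Over all 21455 genes DESeq2 called 7 higher and 14 lower in DMSO and 5 higher and 10 lower in 1-AKP. In the mean effect it called 74 higher and 78 lower. The libraries that share a replicate number deviated together in these comparisons, so the blocked fit is given beside the one without. With the block, 2 genes rose in DMSO, beside 1.71% of all genes, and 0 fell, beside 1.34%. In 1-AKP 1 gene rose, beside 1.44%, and 0 fell, beside 1.33%. In the mean effect 7 rose, beside 4.4%, and 2 fell, beside 4.18%. These are 12.7% and 3.64% of the genes tested. The median log2 fold change (TUNAR siRNAs over negative siRNA) in the mean effect was 0.075 over the 55 genes and -0.0022 over all genes with the block, and 37 of the 55 lay above 0.

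KCND1, the A-type Kv4.1 channel, had 72.4, 84.4 and 79 CPM with TUNAR siRNAs, against 56.4, 76.7 and 73.7 CPM with negative siRNA, in 1-AKP. In DMSO KCND1 had 73.2, 81.8 and 78.9 CPM with TUNAR siRNAs, against 59.8, 71.5 and 69.6 CPM with negative siRNA. It was higher with TUNAR siRNAs in each of the 6 same-numbered pairs, while replicate 1 was low in all 4 groups and the siRNA groups overlapped in 1-AKP but not in DMSO. With the block it rose in DMSO (log2 fold change 0.22, SE 0.047, adjusted p = 0.0039), in 1-AKP (0.19, SE 0.047, adjusted p = 0.0138) and in the mean effect (0.21, SE 0.033, adjusted p = 3.4e-05); without it the mean effect had an adjusted p of 0.425. The DMSO call was lost without replicate 2 (adjusted p = 0.0669) and the 1-AKP call without replicate 1 or 2 (adjusted p up to 0.219), while the mean effect kept its call without any 1 replicate number (adjusted p up to 0.00232). KCNN3 had 6.24, 6.21 and 5.46 CPM with TUNAR siRNAs, against 4.74, 4.41 and 4.2 CPM with negative siRNA, in 1-AKP. In DMSO its values were 9.11, 7.76 and 7.58 CPM with TUNAR siRNAs and 5.93, 6.72 and 5.63 CPM with negative siRNA, and the siRNA groups did not overlap in either treatment. This is a rise of 33.8% in the mean effect with the block (log2 fold change 0.42, SE 0.089, adjusted p = 0.00154), kept without any 1 replicate number (adjusted p up to 0.0371), and the adjusted p was 0.0695 without the block. Of the single treatments only DMSO was called with the block (0.42, SE 0.12, adjusted p = 0.0451), and that call was lost without any 1 replicate number (adjusted p up to 0.386).

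**Figure D4:**
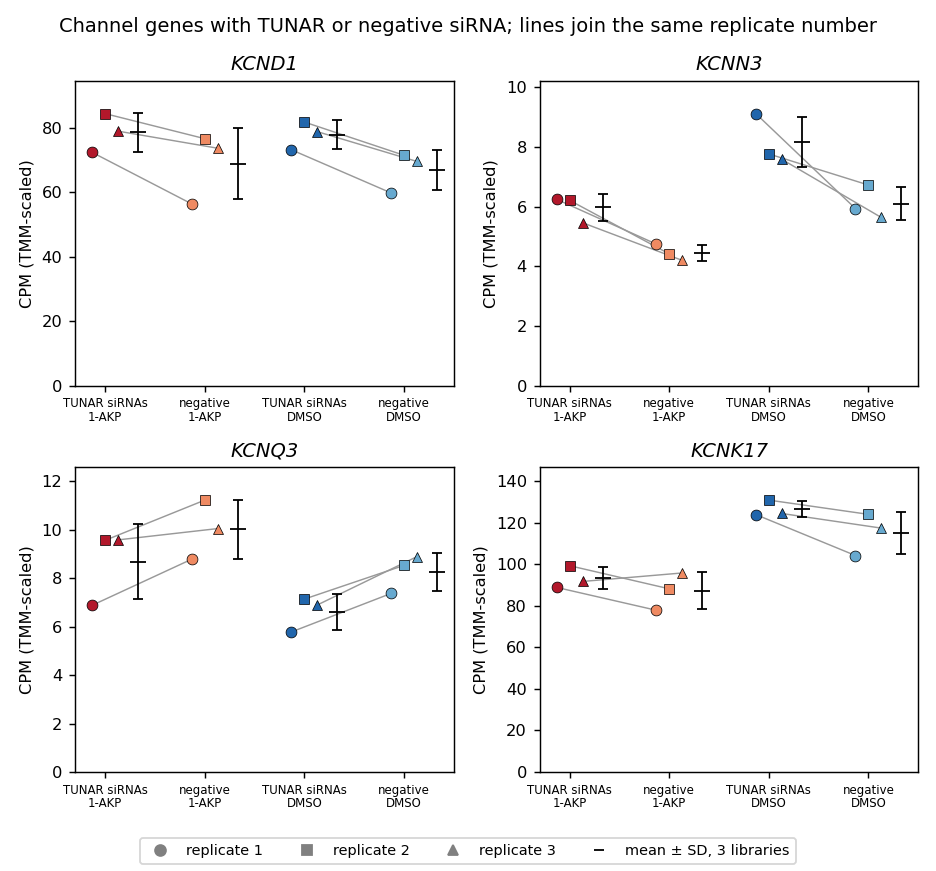
CPM (TMM-scaled, linear axes from 0) of KCND1, KCNN3, KCNQ3 and KCNK17 in each library, with lines joining TUNAR siRNA and negative siRNA libraries of the same replicate number and bars giving mean ± SD of 3 libraries. Every line of KCND1 and KCNN3 runs lower toward negative siRNA and every line of KCNQ3 runs higher, while 1 of the 6 lines of KCNK17 runs against the others.

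The other 5 genes that rose in the mean effect with the block did so by small amounts. KCNH2 was higher by 5.5% (adjusted p = 0.0138), in 6 of 6 pairs, and KCNA3 by 9.74% (adjusted p = 0.0177), in 6 of 6. KCNK17 was higher by 8.4% (adjusted p = 0.0161) in 5 of 6 pairs, KCNH7 by 10.6% (adjusted p = 0.0363) in 5 of 6 and KCNK3 by 12% (adjusted p = 0.0295) in 4 of 6. KCNA3 had 44.1, 45.1 and 51 CPM with TUNAR siRNAs, against 36.9, 45.1 and 45.8 CPM with negative siRNA, in 1-AKP. The replicate 2 libraries of KCNA3 were equal there at the digits shown. They had 712 expected counts with TUNAR siRNAs and 715 with negative siRNA, so that pair counts as higher only after scaling. In DMSO, KCNA3 had 43.5, 49.2 and 52.7 CPM with TUNAR siRNAs, against 39.1, 43.1 and 50.5 CPM with negative siRNA, so the siRNA groups overlapped in both treatments. KCNH2 had 283, 310.4 and 301 CPM with TUNAR siRNAs, against 281, 288 and 287 CPM with negative siRNA, in 1-AKP. In DMSO, KCNH2 had 289, 313 and 297 CPM with TUNAR siRNAs, against 274, 292 and 278 CPM with negative siRNA, also with overlap in both. KCNQ3 fell by 16.9% (log2 fold change -0.27, SE 0.075, adjusted p = 0.019), lower in 6 of 6 pairs, and KCNC4, the fast-inactivating Kv3.4 channel, fell by 12.6% (-0.19, SE 0.061, adjusted p = 0.0394), lower in 5 of 6. KCNC4 had 14.5, 16.2 and 12.3 CPM with TUNAR siRNAs, against 15.2, 14.9 and 16.1 CPM with negative siRNA, in 1-AKP. In DMSO, KCNC4 had 15.9, 14.9 and 13 CPM with TUNAR siRNAs, against 18.1, 18.3 and 16.9 CPM with negative siRNA, where the groups did not overlap. None of these 7 calls holds without the block, where the lowest adjusted p among them was 0.337 (KCNH7). Each was also lost without at least 1 replicate number: KCNQ3, KCNC4 and KCNH7 without any of the 3, KCNA3 without 1 or 3, KCNH2 and KCNK3 without 2 or 3, and KCNK17 without 1 or 2, with adjusted p up to 0.505. KCNK16 had a mean effect of 0.08 with the block (SE 0.029, adjusted p = 0.0742).

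Some genes were called both for the siRNAs and for 1-AKP, in comparisons that share libraries. KCNN3, KCNK17, KCNK3 and KCNH7 had mean log2 fold changes of 0.42, 0.12, 0.16 and 0.15 for TUNAR siRNAs over negative siRNA with the block. For 1-AKP over DMSO, fitted without the block, they had -0.45, -0.42, -0.38 and -0.18. KCNQ3 had -0.27 for the siRNAs with the block and 0.34 for 1-AKP without it. The share of all genes called for both, in the same or in opposite directions, is not given here. A pattern particular to potassium channel genes therefore cannot be told from a general one. Marker genes moved with the siRNAs too. With the block, the neural markers DCX (0.23, adjusted p = 2.62e-07) and STMN2 (0.19, adjusted p = 2.52e-07) and the mitosis markers MKI67 and TOP2A rose. Of the beta-cell markers IAPP (-0.35, adjusted p = 1.42e-09), NKX6-1 and PDX1 fell, and INS (0.07, adjusted p = 0.0197) and CHGA (0.06, adjusted p = 0.0208) rose, calls lost without replicate 2 or 3 (adjusted p up to 0.381). The duct marker KRT19 rose (0.18, adjusted p = 0.000273) and the blood marker CD68 fell (-0.46, adjusted p = 9.77e-06), both also without any 1 replicate number. None of these markers was called without the block, and their part in the potassium channel results was not tested. The difference of the TUNAR siRNA effect between 1-AKP and DMSO was tested directly, and edgeR called 0 of the 55 genes with or without the block, beside 0% of all genes. Of the 55, 0 had an unadjusted p under 0.05 in either fit, and DESeq2 called 0. The lowest unadjusted p values were those of KCNJ6 and KCNJ8. KCNJ6 had 17.6, 18.8 and 17.9 CPM with TUNAR siRNAs, against 18.5, 18.1 and 17.9 CPM with negative siRNA, in 1-AKP. In DMSO, KCNJ6 had 16, 18.7 and 18.9 CPM with TUNAR siRNAs, against 14.9, 15.4 and 16 CPM with negative siRNA. Its siRNA groups overlapped in 1-AKP and met at their ends in DMSO. KCNJ8 had 1.67, 1.84 and 1.97 CPM with TUNAR siRNAs, against 1.26, 1.45 and 1.08 CPM with negative siRNA, in 1-AKP. In DMSO, KCNJ8 had 1.45, 2.13 and 2.07 CPM with TUNAR siRNAs, against 1.5, 2.05 and 2.57 CPM with negative siRNA. Its siRNA groups overlapped in DMSO but not in 1-AKP. The differences of the log2 effects were -0.21 (SE 0.11) and 0.64 (SE 0.34), both with an adjusted p that rounds to 1.

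Genes that work with potassium channels were read in the same fits. In the mean 1-AKP effect, 9.25% of all genes tested fell and 9.97% rose, and the counts below stand beside these shares. Of 16 partner proteins 13 were tested, and in the mean 1-AKP effect 2 fell and 0 rose: AKAP9, the anchoring protein of the KCNQ1 channel in heart, fell to a mean of 237 CPM with 1-AKP, against 284 CPM with DMSO (log2 fold change -0.26, adjusted p = 8.03e-05), and AMIGO1, an auxiliary subunit of Kv2 channels, to 16 CPM with 1-AKP, against 18.9 CPM with DMSO (-0.24, adjusted p = 0.00444). Of 20 genes of the sodium-potassium pump and of potassium cotransport 16 were tested, 3 rose and 2 fell. Among them the pump subunit ATP1B3 (0.30, adjusted p = 0.000905) and the sodium-potassium-chloride cotransporter SLC12A2 (0.16, adjusted p = 0.0154) rose, and the pump regulator FXYD6 (-0.28, adjusted p = 0.0081) fell. Of 28 other cation channel genes 23 were tested, 5 fell and 0 rose: the calcium channel pores CACNA1B (-0.25, adjusted p = 0.00233), CACNA1C (-0.22, adjusted p = 0.000742) and CACNA1H (-0.45, adjusted p = 0.00705), the sodium channel SCN3A (-0.59, adjusted p = 0.0205) and the pacemaker channel HCN2 (-0.28, adjusted p = 0.015). SCN3A missed the threshold without replicate 2 of the negative siRNA DMSO group or replicate 3 of the TUNAR siRNA DMSO group (adjusted p up to 0.0514). The medians of the 3 lists were 0.048, -0.044 and -0.16, against -0.0027 over all genes.

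With TUNAR siRNAs and without the block, 0 genes of these 3 lists were called in either treatment, beside 0.0125% of all genes in DMSO and 0% in 1-AKP. With the block, FXYD3 fell and FXYD6 rose in DMSO (-0.23, adjusted p = 0.00692 and 0.15, adjusted p = 0.0172) and in 1-AKP (-0.20, adjusted p = 0.0262 and 0.17, adjusted p = 0.00728), and CACNA1C (0.20, adjusted p = 0.00667) and SCN3B (0.14, adjusted p = 0.0343) rose in 1-AKP. In the mean effect with the block, 1 partner rose and 0 fell, 2 pump and cotransport genes rose and 2 fell, and 3 other cation channel genes rose and 2 fell. Those counts are of 13, 16 and 23 genes tested, beside 4.4% of all genes that rose and 4.18% that fell. Of the genes called, FXYD3, FXYD6 and CACNA1C kept their call in the mean effect without any 1 replicate number, while none of the single-treatment calls did.

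Replicate number separated many potassium channel genes. In the block fit, 23 of the 55 genes differed between the 3 numbers (edgeR's F test), or 41.8%, beside 39.2% of all genes. KCNC2, a fast Kv3 channel, ran from 9.48 to 11.5 CPM in the 4 libraries of replicate 1, from 5.86 to 7.95 CPM in replicate 2 and from 4.71 to 10.0 CPM in replicate 3 (adjusted p = 4.32e-05). KCNJ16 ran from 7.14 to 9.99 CPM in replicate 1, from 5.23 to 8.64 CPM in replicate 2 and from 3.75 to 6.26 CPM in replicate 3, the one from passage 75 (adjusted p = 2.07e-05). Replicate 1 was the highest in KCNC2 in each of the 4 groups, and replicate 3 the lowest in KCNJ16 in each of the 4 groups. The leak channels KCNK5 and KCNK10 were lowest in replicate 1, with means of 1.6 and 2.29 CPM, against 2.77 and 4.02 CPM in replicate 2 and 2.93 and 3.74 CPM in replicate 3 (adjusted p = 0.000391 and 0.000333). KCND1, KCNA3 and KCNG3 were also lowest in replicate 1, and KCNK16 was lowest in replicate 3, at a mean of 128 CPM, against 146 CPM in replicate 1 and 151 CPM in replicate 2. Without replicate 1 the count was 3 genes (5.45% of those tested, beside 4.66% of all genes), without replicate 2 it was 24 (44.4%, beside 37.7%) and without replicate 3 it was 18 (32.7%, beside 30.8%). The 1-AKP libraries alone gave 15 (27.8%, beside 23.8%) and the DMSO libraries alone 16 (29.6%, beside 27.8%). Replicate 1 is also the number whose islet-cell and mitosis markers stood apart, and the part of those cells in these differences was not tested.

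**Figure D5:**
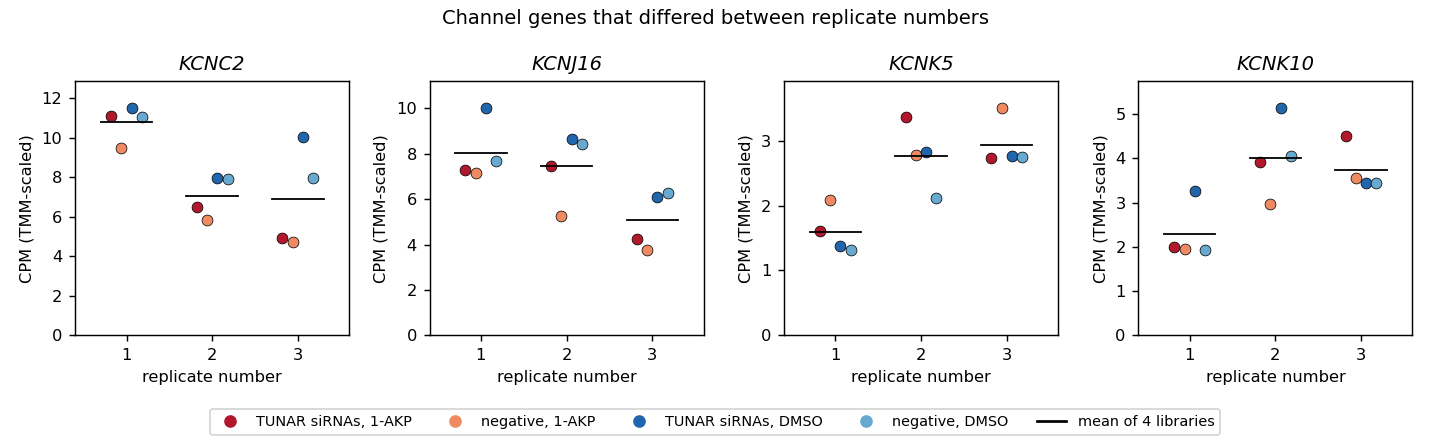
CPM (TMM-scaled, linear axes from 0) of KCNC2, KCNJ16, KCNK5 and KCNK10 by replicate number, with 1 point for each of the 4 groups and a bar at their mean. KCNC2 is highest in replicate 1, KCNJ16 lowest in replicate 3, and KCNK5 and KCNK10 have their lowest means in replicate 1.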

How the data were processed

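Polyadenylated RNA of 12 EndoC-βH1 libraries was sequenced by Illumina HiSeq, and the labels state no strand marking. Each deposited file gives per gene an expected count, which is an estimate of reads before any normalisation, and an FPKM value, per the file headers. The authors' FPKM are fragments scaled by gene length and library total, per the file headers, and gene length is listed as well. Tools in the submitters' processing notes are RSEM, Bowtie and BWA, and genome builds there are hg19 and GRCh37; no version or role is given. Each library lists only genes above 0, and a gene not listed was taken as 0. Genes are keyed by Entrez Gene ID, and 21367 of 21508 were matched to current symbols through a RefSeq table of GRCh38.p14. Besides the gene not analysed, the annotation holds 95 protein-coding KCN genes, of which 6 are not among the 89. Total expected counts ran from 15653786 to 15986834, which sets the precision of low genes; they were rounded to whole numbers before testing. Per-pair chi-square checks found no library that was a copy of another in its group.

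Genes were filtered with edgeR's filterByExpr (minimum count 10, minimum total 15), which kept 15990 genes with 99.9% of the counts, and scaled by TMM (factors 0.990 to 1.014). edgeR 4.0.16 under R 4.3.3 fitted the 4 group means with glmQLFit (robust, 8 residual degrees of freedom, common biological coefficient of variation 8.74%), and contrasts were tested with its quasi-likelihood test and adjusted by Benjamini-Hochberg over all genes. The contrasts were the siRNA effect in each treatment, the 1-AKP effect with each siRNA, the mean of each pair and the difference of the siRNA effects. To see whether replicate numbers pair libraries, deviations from group means were correlated over genes: between siRNAs, same-numbered 1-AKP libraries correlated at 0.416, 0.162 and 0.286, and same-numbered DMSO libraries at 0.376, 0.178 and 0.217, all over 0.1. A blocked fit (6 residual degrees of freedom, 2.86% coefficient of variation) therefore stands beside the siRNA comparisons. Between treatments, the correlations for replicates 1, 2 and 3 were 0.427, 0.0871 and 0.223 with negative siRNA. With TUNAR siRNAs they were 0.407, 0.0634 and 0.159. Since 1 of 3 was under 0.1 with either siRNA, the block is given for 1-AKP only among the alternatives. The 1-AKP tests without the block thus keep the spread between replicate numbers in their error. The script was tested on simulated data with known changes. Named with values were members called in any comparison in either fit, the 15 with the highest mean FPKM and the 2 of lowest p in comparisons without a called member; others at a mean of at least 1 FPKM are named with their level, and some genes that the rule or the lists hold are counted but not reported by name here. The members, the gene lists and the tests were chosen with earlier results of these data known. Alternatives were the block, DESeq2 1.42.0, scaling by library size, no filter, limma 3.58.1 on log2(FPKM + 0.1) and log2(FPKM + 1), passage 74 only, passage as a covariate and each library left out; leaving out each replicate number from the block fit was added after the data were seen. Promoter windows are RefSeq's; protein sequences were not used here.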

Additional observations from a re-analysis of the deposited data

How the results depend on the processing

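The counts of called potassium channel genes moved most with the replicate block and with the number of libraries. With the replicate block, 2 genes were called for TUNAR siRNAs in DMSO, 1 in 1-AKP and 9 in their mean effect, against 0 in each without it, and 19, 14 and 19 for 1-AKP with negative siRNA, with TUNAR siRNAs and in the mean effect, against 4, 6 and 12. Those 1-AKP counts are 34.5%, 25.5% and 34.5% of the genes tested, beside 26.8%, 27.1% and 39.7% of all genes. The test of any group difference called 26 with the block (47.3%, beside 37.5% of all genes), against 7. The block changed no call of the difference between siRNA effects. In the block fit without 1 replicate number at a time, chosen after seeing the data, the siRNA counts ran from 0 to 2 in DMSO, 0 to 1 in 1-AKP and 3 to 5 in the mean effect, and the 1-AKP counts from 8 to 14 with negative siRNA, and were 8, 10 and 11 with TUNAR siRNAs. Without 1 library at a time and without the block, 2 to 6 genes were called for 1-AKP with negative siRNA and 3 to 6 with TUNAR siRNAs. In passage 74 only, 1, 1 and 3 genes were called for 1-AKP with negative siRNA, with TUNAR siRNAs and in the mean effect, where 2 libraries a group are compared. With passage as a covariate 8 were called with negative siRNA and 1 (KCNN3) in the mean siRNA effect. For the siRNA and 1-AKP counts with libraries left out or with the covariate, shares of all genes are not given here. Changes particular to potassium channel genes therefore cannot be told from general ones. A threshold of 2 FPKM counted 22 genes as expressed and one of 0.5 FPKM 46, against 34 at 1 FPKM. Differences between replicate numbers were called for 15 genes in the 1-AKP libraries and for 3 to 24 without 1 replicate number at a time. Over the 22 calls of single potassium channel genes without the block, 369 of 462 values under alternatives kept the call, 93 missed the threshold in the same direction and 0 changed direction; the 12 siRNA calls with the block kept it in 13 of 48 values, and 0 changed direction. Why calls were lost was not tested, beyond the fewer libraries of the omissions. Depth limits the low genes: 34 members, with mean levels up to 0.502 FPKM, did not pass the filter on low counts, and no change is reported for them.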

Other observations

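A noncoding transcript of the family's loci that the selection by protein-coding entry leaves out, KCNQ1OT1, which is transcribed antisense within KCNQ1, had 160.5, 162 and 173 CPM with TUNAR siRNAs and 1-AKP, 143, 156 and 156 CPM with negative siRNA and 1-AKP, 172, 165 and 176 CPM with TUNAR siRNAs and DMSO, and 159, 160.5 and 170.1 CPM with negative siRNA and DMSO. KCNQ1 itself averaged 0.294 CPM over the 12 libraries. Without strand marking, reads of the overlap cannot be assigned to either gene.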
